A study of Homo sapiens with 11 samples.

Results

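Replication-dependent histone genes encode the linker histone H1 and the core histones H2A, H2B, H3 and H4 that package newly made DNA. They were chosen by name: protein-coding genes H1-1 to H1-6 and those whose symbol starts with H2AC, H2BC, H3C or H4C and a number, or whose older name starts with HIST and a number, with at least 10 counts summed over the 11 libraries. Of 58037 rows in the count table, 72 carried such a name, 57 of them passed the count minimum and 15 did not (9 of these had no counts). The 57 genes comprised 5 H1, 13 H2A, 16 H2B, 9 H3 and 14 H4 genes. RNA was sequenced from OCI-AML3, an established acute myeloid leukaemia (AML) line, and from OCI-AML3-FLT3-ITD, a line labelled for the internal tandem duplication of the receptor kinase FLT3. Cells were controls or were exposed for 16 h to 100 nM FHD-286, an inhibitor of BRG1 and BRM (SMARCA4 and SMARCA2), the ATPases of BAF chromatin remodelling complexes. OCI-AML3 gave 3 control and 3 treated libraries, and OCI-AML3-FLT3-ITD gave 3 control and 2 treated libraries. The labels name no vehicle for the controls and do not say how the FLT3-ITD line was made or whether it is 1 clone, and all groups were grown in the same serum-containing medium.

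Messages of these genes are made mainly in S phase, when NPAT and associated factors switch on the histone loci. Most histone messages carry no poly(A) tail. They end just after a short stem-loop that SLBP (stem-loop binding protein) recognises. The U7 small nuclear ribonucleoprotein takes part in the cleavage that makes this end. Some of the genes can also make longer, spliced or polyadenylated transcripts that run past the stem-loop, a form known from cells that have left the cycle or are differentiating. The labels give the starting material as total RNA and do not say whether poly(A) RNA was selected.

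The stem-loop is shown because the annotated transcripts end close to it in some members and run far past it in others. In GENCODE 29 (GRCh38), 28 of the 57 genes had the 16-base element in an annotated transcript, between 22 and 67 bases after the stop codon. The sequences below run 5′ to 3′ on the coding strand, with both 6-base arms of the stem in capitals around the 4-base loop. The coordinates that follow are those of the 16 bases.
H2BC4: ccaaaGGCTCTtttaAGAGCCacccagata
H2AC6: ccaaaGGCTCTtttcAGAGCCcccctaccg
H2BC8: tcaaaGGCTCTtttcAGAGCCactcaagtc
H4C8: ccaaaGGCCCTtttcAGGGCCgcccacttt
H4C9: aaaaaGGCCCTttttAGGGCCcctaagctt
H2AC8: ccaaaGGCTCTtttcAGAGCCacccacctt
H4C2: ccaatGGCCCTtttcAGGGCCgcccactcc
The elements lie on chromosome 6 at 26123472 to 26123487 (H2BC4, minus strand), 26124669 to 26124684 (H2AC6, plus), 26216218 to 26216233 (H2BC8, minus) and 26217417 to 26217432 (H2AC8, plus). Those of the H4 genes are at 26285131 to 26285146 (H4C8, minus), 27139654 to 27139669 (H4C9, plus) and 26026901 to 26026916 (H4C2, minus). The 7 sequences differ little from each other, and their part in the response to FHD-286 was not tested. Across the 28 genes the element took 6 forms, and the commonest was shared by 15 genes of the H2A, H2B and H3 families. For 24 members the GENCODE 29 model stops at the stop codon, so that no stem-loop is printed for them. They are 23 genes with a short annotated 3′ end and H2BC12, whose long end is annotated in RefSeq only. The annotation used for counting is not given in the sources used here, and reads past a model that stops at the stop codon may have gone uncounted.

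Promoters are shown for an H2B gene from each of a pair of head-to-head H2A and H2B gene pairs, and for the linker gene H1-5. They are RefSeq windows (GRCh38.p14) from 250 bases before to 50 after the annotated start, 5′ to 3′ on the coding strand. Capitals mark, on either strand, the octamer ATTTGCAT, the box CCAAT and the box TATAAA.
H2BC4: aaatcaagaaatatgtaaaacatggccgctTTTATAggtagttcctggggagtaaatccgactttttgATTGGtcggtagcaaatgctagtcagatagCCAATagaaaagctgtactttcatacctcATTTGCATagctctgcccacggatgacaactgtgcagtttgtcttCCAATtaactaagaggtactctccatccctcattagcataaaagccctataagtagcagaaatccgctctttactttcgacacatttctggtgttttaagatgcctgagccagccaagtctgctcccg
H2BC12: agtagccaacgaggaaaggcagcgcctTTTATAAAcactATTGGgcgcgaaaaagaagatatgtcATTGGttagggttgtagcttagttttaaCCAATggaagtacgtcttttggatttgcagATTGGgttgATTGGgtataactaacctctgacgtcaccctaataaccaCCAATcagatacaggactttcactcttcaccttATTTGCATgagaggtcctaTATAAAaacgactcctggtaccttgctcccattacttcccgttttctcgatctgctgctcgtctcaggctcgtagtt
H1-5: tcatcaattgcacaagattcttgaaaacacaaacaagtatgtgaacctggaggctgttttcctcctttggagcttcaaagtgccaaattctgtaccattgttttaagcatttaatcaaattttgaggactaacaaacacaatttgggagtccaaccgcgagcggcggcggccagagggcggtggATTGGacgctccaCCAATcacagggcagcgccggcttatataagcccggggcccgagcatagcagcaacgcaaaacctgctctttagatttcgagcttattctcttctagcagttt
The windows lie on the minus strand of chromosome 6 at 26123877 to 26124176 (H2BC4), 27146809 to 27147108 (H2BC12) and 27867539 to 27867838 (H1-5). Of the 57 members, 51 were in the RefSeq table of 35116 promoters. The octamer was in 11 of 15 H2B and 8 of 12 H2A windows and in none of the 24 H1, H3 and H4 windows, against 1.77% of all promoters. CCAAT was in 82.4% of the members' windows against 34.6% of all, and TATAAA in 66.7% against 11.5%. The letters TTTNNCGC, searched as an E2F motif on both strands, were in 33.3% of the members' windows and in 6.89% of all promoters. Over the classes of annotated 3′ end described below, the octamer was in 47.8% of long-ended and 28.6% of short-ended windows, TATAAA in 52.2% and 78.6%, and TTTNNCGC in 21.7% and 42.9%. These shares follow family in part, and among H2B genes the octamer was in 9 of 12 long-ended and 2 of 3 short-ended windows and TTTNNCGC in 3 of 12 and 3 of 3. No test was made of these shares. A match describes the letters of the window and is no measure of binding.

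Total counts ran from 58397190 to 79172389 per library, and 3 counts in a library were worth between 0.0366 and 0.0548 CPM (counts scaled to library size with TMM factors). The library labelled FLT3-ITD control 2 went against its label at FLT3: it had 53.4 CPM, where the other 2 FLT3-ITD controls had 178 and 203 CPM and the OCI-AML3 libraries 39.2 to 43.3 CPM. Its mitochondrial share of counts was 8.85%, against 4.82% and 4.48% in the other FLT3-ITD controls and 5.07% to 6.13% in the OCI-AML3 controls. The counts of calls over the members and the main values of the FLT3-ITD line are therefore also given without it, whereas the sums per protein were fitted with all libraries only. SMARCA4 was at 362 to 515 CPM in all libraries. The summed level of 10 myeloid markers was 2328 to 2600 CPM in OCI-AML3 controls and 1353 to 1364 CPM with FHD-286, and 1558 to 1730 CPM and then 731 to 772 CPM in the FLT3-ITD line. Of the 10, 7 fell and 1 rose in OCI-AML3 and 8 fell in the FLT3-ITD line (8 and 1, and 9, without control 2), and their part in the histone values was not tested. Of 16 markers of other cell types 13 stayed under 1 CPM in all libraries, with PF4, HBB and CD3E at 0. Of the other 3 in that list, PECAM1 was at 28.3 to 31.0 CPM in the OCI-AML3 controls, at 10.1 and 10.9 CPM in FLT3-ITD controls 3 and 1, and at 29.1 CPM in the library labelled control 2. The labels do not say that replicates were separate cultures, so that the p-values reflect only how far these libraries varied, and that variation may be technical. In bulk RNA, fewer cells in S phase and less histone RNA per cell cannot be told apart.

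With FHD-286 a set of H2B, H2A and H4 genes rose 3- to 7-fold in OCI-AML3. Few histone genes fell, namely H1-5, H4C1 and H2BC14, and the calls of H1-5 and H2BC14 depended on single libraries. Of the 57 genes, 51 passed the filter on low counts and were tested. At an adjusted p under 0.05, 20 rose and 3 fell (39.2% and 5.88%, or 45.1% in either direction). Of all 18908 genes tested, 19.7% rose and 21.4% fell (41.2% in either direction). The share called in either direction was thus near the background, with more rises and fewer falls. The members' median log2 fold change was 0.62, beside 0.01 for all genes tested. The 6 members not tested (H2AC4, H2AC18, H3C1, H3C3, H4C11 and H1-6) had between 10 and 62 counts in all. Another 7 (H2AC19, H2AC21, H3C6, H4C2, H4C4, H4C6 and H4C13) passed the filter only through the libraries of 1 group. A difference was thus built into their selection. H3C6 and H4C4, which passed only through treated OCI-AML3 libraries, are among the 20 that rose. With no filter, all 57 were tested, and 18 rose and 3 fell, beside 10.8% and 10.3% of 33722 genes. The library labelled FLT3-ITD control 2 is not part of this comparison but sets the shared spread. Without it, 22 of 50 rose and 8 fell (60.0% in either direction), beside 28.9% and 29.8% of 18662 genes (58.8% in either direction). DESeq2 called 19 higher and 5 lower of 50, beside 20.7% and 22.5% of all genes.

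H2AC6 (HIST1H2AC, chromosome 6, start 26124145) encodes an H2A protein. It was at 16.3, 14.8 and 15.2 CPM in the 3 OCI-AML3 controls and at 113, 103 and 112 CPM with FHD-286. The treated libraries were all higher, and the log2 fold change was 2.83 ± 0.73 (SE, 7.11-fold, adjusted p = 0.0141). That SE carries the spread of the FLT3-ITD controls, and it was 0.07 without the library labelled control 2 (adjusted p = 4.6e-19). H2BC12 (HIST1H2BK, minus strand, 27146418 to 27146798), an H2B gene, went from 31.2, 28.8 and 31.8 CPM to 99.3, 92.1 and 96.6 CPM. The ranges did not overlap, and the log2 fold change was 1.65 ± 0.14 (adjusted p = 7.29e-06). Per kilobase of coding sequence, H2BC12 was at 80.2 CPM per kb and H2AC6 at 39.2 in the controls, and at 252 and 279 with FHD-286. Per kilobase of annotated exon, which is 1668 bases for H2AC6 and 381 for H2BC12, they were at 80.2 and 9.24 and then at 252 and 65.7, so that their order with FHD-286 depends on the length used. These 2 genes held 45.9% of the members' pooled raw counts in control libraries and 59.8% in treated ones.

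Most of the other H2B genes with a rise stood on chromosome 6 as well. H2BC4 was at 0.932, 0.781 and 1.11 CPM in controls and at 6.77, 6.59 and 6.86 CPM with FHD-286, a log2 fold change of 2.84 ± 0.21 (adjusted p = 2.51e-06). H2BC8 went from 0.658, 0.344 and 0.754 CPM to 4.38, 4.31 and 3.98 CPM (log2 2.86 ± 0.31, adjusted p = 3.37e-05). For both genes the treated libraries lay far above every control. H2BC5 was at 4.48, 4.39 and 5.19 CPM and then at 22, 21.8 and 22.9 CPM (log2 2.25 ± 0.35, adjusted p = 0.000519). H2BC11 went from 1.5, 2.11 and 2.28 CPM to 7.41, 6.49 and 6.89 CPM (log2 1.82 ± 0.18, adjusted p = 2.2e-05). H2BC6, of which 28.2% of the exon length overlaps another gene, went from 0.329, 0.0781 and 0.18 CPM to 1.34, 1.14 and 1.63 CPM (log2 2.82 ± 0.48, adjusted p = 0.00075). In all, 10 of the 16 H2B genes rose and 1 fell, beside 19.7% of all genes higher and 21.4% lower. The other H2B genes that rose were H2BC9, H2BC12L, H2BC15 and H2BC21 (log2 1.69, 2.13, 0.43 and 1.12).

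**Figure D1:**
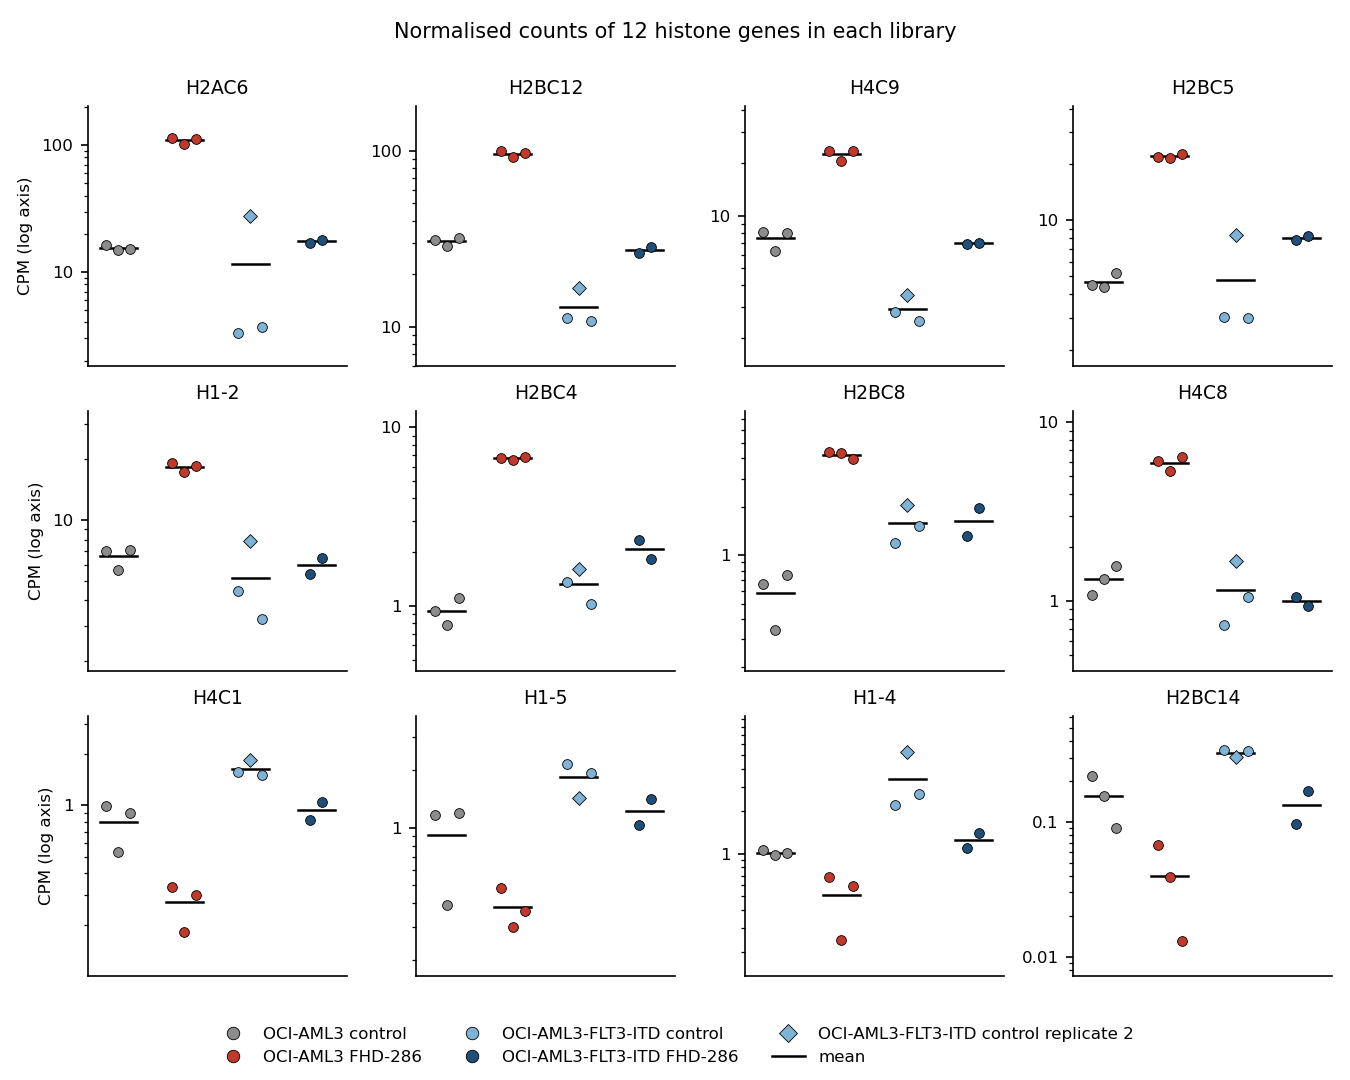
Normalised counts (CPM, log axis) of 12 histone genes in each of the 11 libraries. Points are libraries, lines are group means, and the diamond is the library labelled FLT3-ITD control 2. H2AC6 goes from 14.8 to 16.3 CPM in OCI-AML3 controls to 103 to 113 CPM with FHD-286, while H4C1 and H2BC14 fall below every control.

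Among H2A genes 3 of 11 tested rose and none fell, beside 19.7% of all genes higher and 21.4% lower. H2AC11 went from 2.16, 2.44 and 2.05 CPM to 10.1, 8.85 and 9.47 CPM (log2 2.10 ± 0.23, adjusted p = 3.61e-05), and the third, H2AC8, changed by 0.99 on the log2 scale. H2AC25, an H2A gene of the smaller chromosome 1 cluster, was at 5.35, 4.89 and 6.30 CPM and at 7.12, 5.79 and 6.69 CPM, and its overlapping ranges gave no call (log2 0.24 ± 0.25, adjusted p = 0.466). Of the H4 genes, which all encode the same protein, 4 of 13 tested rose and 1 fell, beside the same shares of all genes. With so few genes, the H2A and H4 counts do not set either family apart from that background. H4C9 carried most of the H4 counts and went from 8.04, 6.30 and 7.94 CPM to 23.3, 20.5 and 23.5 CPM (log2 1.60 ± 0.14, adjusted p = 1.02e-05). H4C8 went from 1.08, 1.34 and 1.58 CPM to 6.06, 5.34 and 6.43 CPM (log2 2.15 ± 0.27, adjusted p = 0.000104). All treated libraries were above all controls for both. H4C12 and H4C4 also rose from low levels (log2 2.44 and 2.32). H4C4 passed the filter on low counts only through the treated OCI-AML3 libraries, so a difference was built into its selection.

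The H3 genes had few counts, a summed 1.87 ± 0.459 CPM (SD, n = 3) in OCI-AML3 controls. Of 7 tested, 2 rose (H3C10 and H3C6) and none fell, beside 19.7% of all genes higher and 21.4% lower. H3C6 passed the filter on low counts only through the treated OCI-AML3 libraries, so a difference was built into its selection. H3C10 went from 1.08, 0.594 and 0.916 CPM to 3.27, 2.66 and 3.41 CPM, without overlap (log2 1.85 ± 0.29, adjusted p = 0.00045). H3C12 was at 0.274, 0.219 and 0.18 CPM and at 0.429, 0.169 and 0.492 CPM, ranges that overlapped (log2 0.69 ± 0.38, adjusted p = 0.17), and 44.6% of its exon length overlaps H2AC17. H3C6 had 1 count in the 3 controls together and 38 in the treated libraries. The ratio was 29, with a 95% exact interval of 4.89 to 1173 that covers counting error only.

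Linker histone genes moved both ways. H1-2 had the most counts, at 7, 5.69 and 7.15 CPM in controls and at 19.3, 17.4 and 18.6 CPM with FHD-286 (log2 1.48 ± 0.26, adjusted p = 0.00109). H1-5 went from 1.17, 0.391 and 1.19 CPM to 0.482, 0.298 and 0.363 CPM (log2 -1.25 ± 0.39, adjusted p = 0.0256), and its ranges overlapped because control 2 was low. The fall of H1-5 did not pass the threshold without OCI-AML3 control 1 or 3 or without treated library 2 or 3 (adjusted p between 0.0816 and 0.104, log2 between -1.02 and -1.19). H1-4 was at 1.06, 0.984 and 1.02 CPM and at 0.683, 0.246 and 0.596 CPM, values that did not overlap but gave no call (log2 -1.01 ± 0.40, adjusted p = 0.0651). It was called without the library labelled FLT3-ITD control 2 (adjusted p = 0.00208).

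The other 2 falls were in core histone genes. H4C1 went from 0.987, 0.531 and 0.898 CPM to 0.335, 0.182 and 0.298 CPM (log2 -1.56 ± 0.30, adjusted p = 0.00182), with all treated libraries below all controls. H2BC14 went from 0.219, 0.156 and 0.0898 CPM to 0.067, 0.0389 and 0.013 CPM (log2 -1.93 ± 0.56, adjusted p = 0.018). The H2BC14 values are near the floor of 3 counts, and its call was lost without OCI-AML3 control 1 (adjusted p = 0.0736) or without treated library 2 (0.0529) or 3 (0.067).

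The members were also grouped by the 3′ end of their annotated transcripts. A split was drawn after the values were seen, at 150 bases past the stop codon in GENCODE 29 or RefSeq, and is given with no test. The counts by class describe these data and are no support for the split. The GENCODE value is the length within the transcript. The RefSeq value is the distance on the genome from the stop codon to the gene's end, introns included. H2BC12 is long by that distance only (8125 bases). The split left 23 genes with a long end (218 bases or more) and 34 with a short one (126 bases or fewer). Of the 23 long-ended genes, all tested, 15 rose and none fell in OCI-AML3, with a median log2 fold change of 1.65. Of the 34 short-ended genes 28 were tested, 5 rose and 3 fell (17.9% and 10.7%), and the median was -0.62. Of all genes tested, 19.7% rose and 21.4% fell. Without the library labelled FLT3-ITD control 2, 16 long-ended genes rose and none fell (median 1.65). Of 27 short-ended genes 6 rose and 8 fell in that fit (median -0.40). These counts stand beside 28.9% of all genes higher and 29.8% lower. The exceptions among short-ended genes, H1-2, H2AC8, H2BC12L, H4C4 and H4C12, show that the split is not complete. The 8 long-ended genes with no call show the same. H4C4 and the long-ended H3C6 passed the filter on low counts only through the treated OCI-AML3 libraries. The split also follows family: 12 of the 16 H2B genes had a long end, and none of the 5 H1 genes. An annotated end says which transcripts are known and not which were present in these cells.

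Summed over the long-ended genes, the libraries held 87.3, 77.7 and 88.5 CPM in OCI-AML3 controls and 328, 299 and 325 CPM with FHD-286, a ratio of means of 3.76. The short-ended genes without H1-2 summed to 10.4, 7.34 and 9.90 CPM in controls and to 8.85, 6.59 and 9.54 CPM with FHD-286, overlapping ranges with a ratio of 0.902. With H1-2 the short-ended sum had a ratio of 1.69, so that H1-2 alone decided whether that sum was higher. All 57 genes together went from 100 ± 8.31 to 344 ± 18 CPM (SD, n = 3 each).

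**Figure D2:**
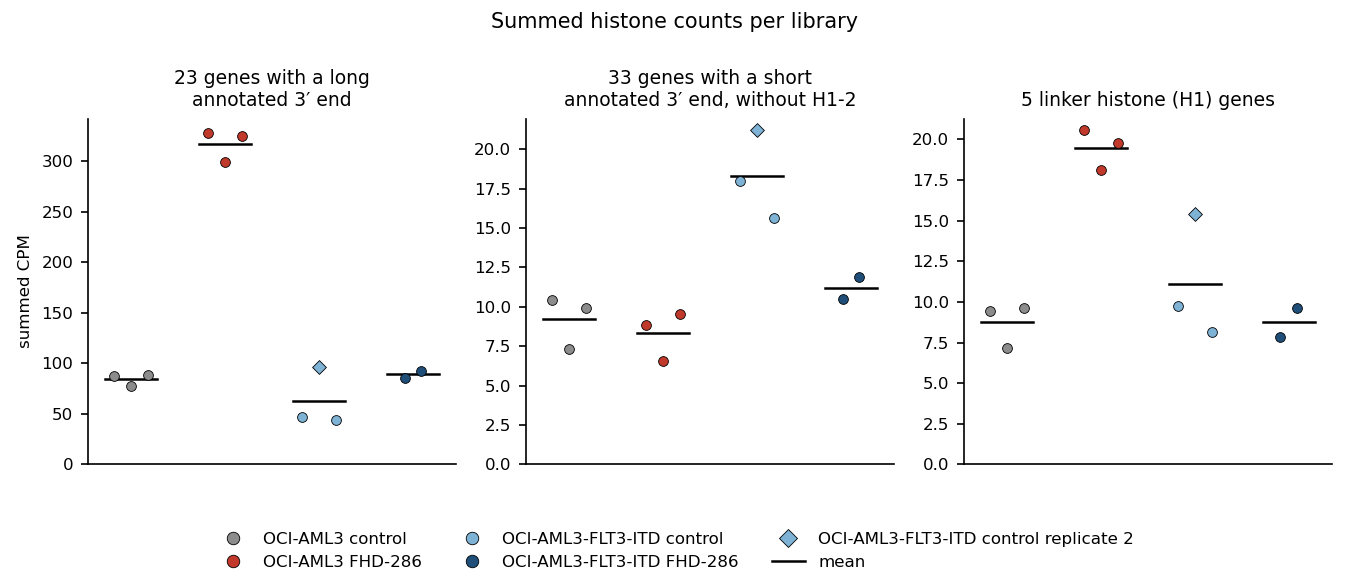
Summed CPM per library of 23 long-ended histone genes, 33 short-ended ones (H1-2 left out) and the 5 H1 genes, with points for libraries and lines for group means. The long-ended sum in OCI-AML3 goes from at most 88.5 CPM in controls to at least 299 CPM with FHD-286, while the short-ended sums of the same libraries overlap.

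**Figure D3:**
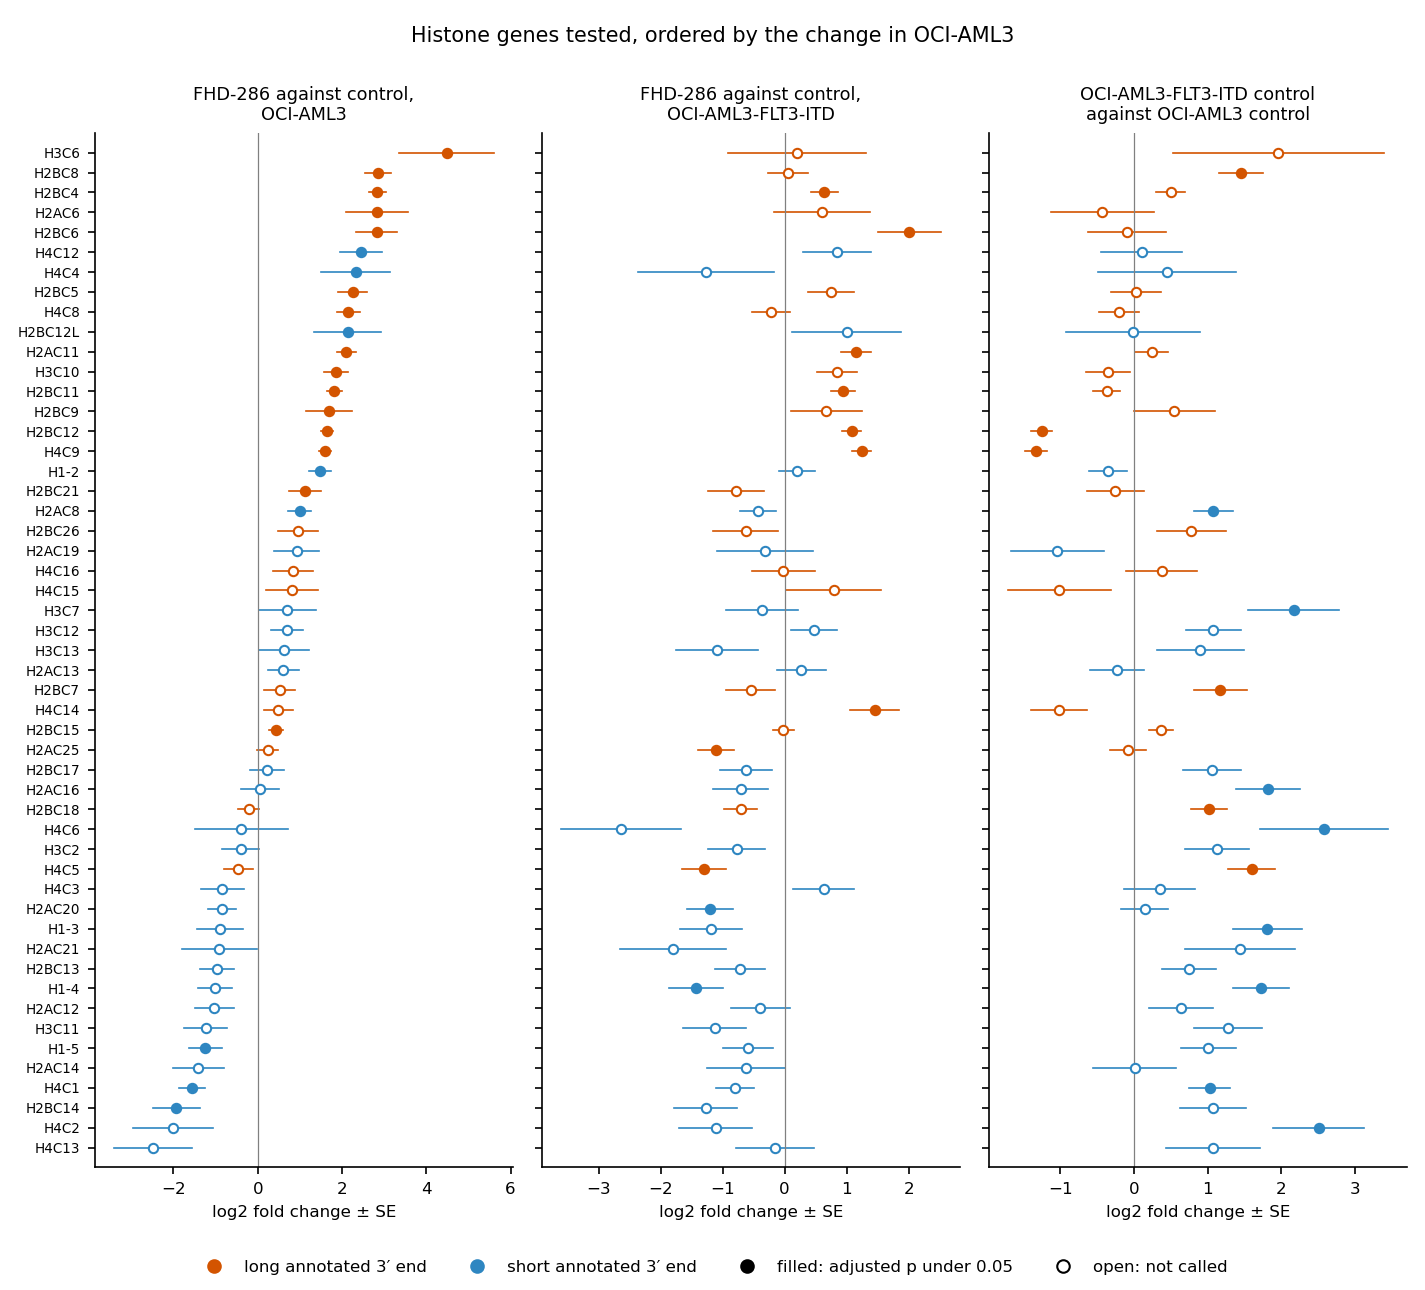
Log2 fold changes (± SE) of the 51 histone genes tested, ordered by the change in OCI-AML3, in 3 comparisons. Filled points passed an adjusted p of 0.05, and colour gives the class of annotated 3′ end. In the left panel 15 long-ended genes are filled on the positive side and none on the negative side.

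Head-to-head pairs set genes that share an intergenic region side by side. In 9 pairs of members, a minus-strand gene and a plus-strand gene had annotated GENCODE starts between 219 and 357 bases apart (for a model of the coding part only, the start is the start codon). H2BC4 and H2AC6, 219 bases apart, changed by 2.84 and 2.83 in OCI-AML3, and H2BC11 and H2AC11, 292 bases apart, by 1.82 and 2.10. All 4 have a long annotated end. H2BC12, with a long end, rose by 1.65 while its partner H2AC12, with a short end, had -1.03 ± 0.47 and no call. The values were 1.12 and -0.85 for H2BC21 (called) and H2AC20 (not called), and 2.86 and 0.99 for H2BC8 and H2AC8 (both called). Among pairs of 2 short-ended genes, H2AC14 and H2BC14 both had negative values (-1.41, not called, and -1.93, called). H2BC13 and H2AC13, also short-ended, had -0.96 and 0.61, and H3C12 and H2BC17 had 0.69 and 0.22, none of them called. The long-ended H2AC25 and H2BC26 had 0.24 and 0.95 and were not called. In 6 of the 9 pairs both values had the same sign. Differences within pairs were not tested.

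**Figure D4:**
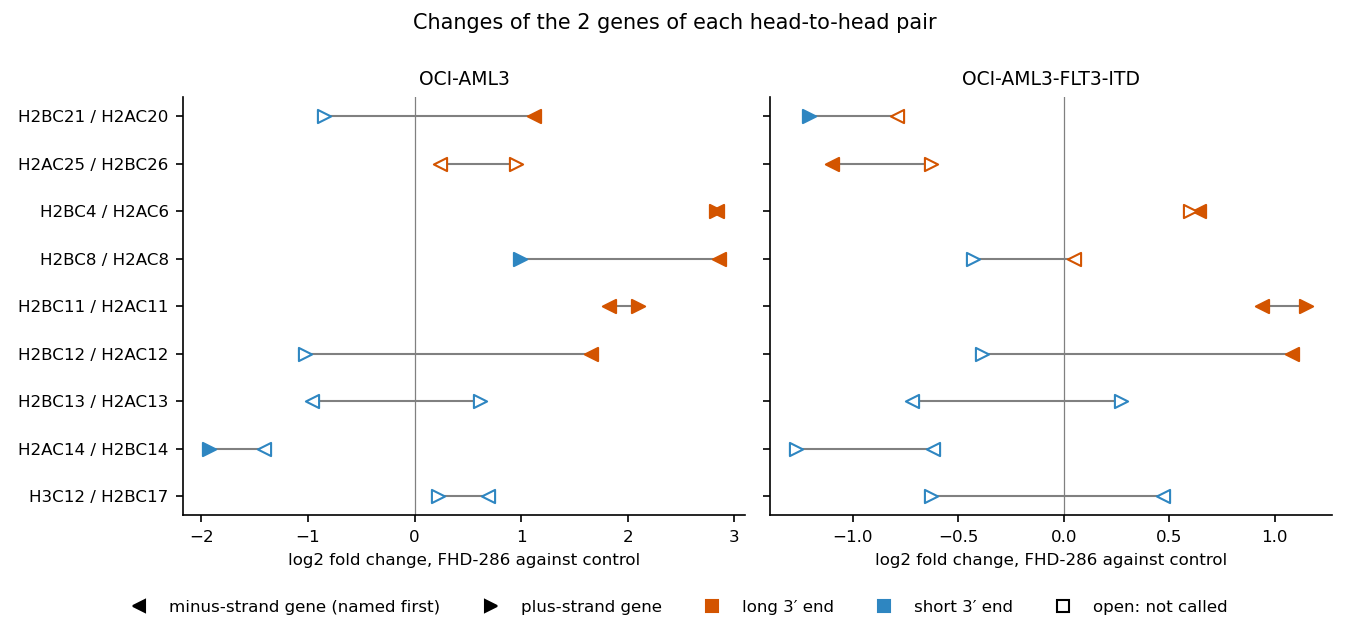
Log2 fold changes with FHD-286 of both genes of 9 head-to-head histone gene pairs in each line. Triangles point along the strand of the gene, colour gives the annotated 3′ end and open symbols were not called. Genes of H2BC12/H2AC12, H2BC21/H2AC20 and H2BC13/H2AC13 lie on opposite sides of 0 in OCI-AML3, and those of H2BC4/H2AC6 nearly coincide.

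The counts by position in OCI-AML3 stand beside 19.7% of all genes higher and 21.4% lower. Of the 21 tested genes in the cluster at 26020490 to 26285638 on chromosome 6, 11 rose and 1 fell. Those 11 include H3C6 and H4C4, which passed the filter on low counts only through the treated OCI-AML3 libraries. All but 1 of the 5 genes at 27125897 to 27147515 rose, the exception being H2AC12. In the cluster at 27807444 to 27893843, 3 of 13 rose and 2 fell, and in that on chromosome 1 at 149782689 to 149887916, 1 of 8 rose (H2BC21). The remaining rise was in H2BC12L on chromosome 21.

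In OCI-AML3-FLT3-ITD fewer histone genes passed the test: 7 rose and 4 fell of 51, beside 15.6% and 14.8% of all genes (30.5% in either direction). The median log2 fold change was -0.37, beside -0.02 for all genes. Without the library labelled control 2, which left 2 controls and 2 treated libraries, 14 of 50 rose and 10 fell, beside 24.7% and 24.2% of all genes (48.9% in either direction). Among those 10, H2AC21 and H4C6 had passed the filter on low counts only through FLT3-ITD controls. Of the genes with a long end 7 rose and 2 fell (11 and 3 without that library), and of those with a short end none of 28 rose and 2 fell (3 and 7 of 27). Sums of the long-ended genes were 46.6, 96.9 and 43.7 CPM in FLT3-ITD controls and 85.6 and 92.8 CPM with FHD-286, so that the second control was as high as the treated libraries. Without it the ratio of means was 1.98, and with it 1.43. The short-ended genes without H1-2 summed to 18, 21.2 and 15.6 CPM and then to 10.5 and 11.9 CPM, below every control.

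H2BC12 was at 11.2, 16.6 and 10.8 CPM in FLT3-ITD controls and at 26.2 and 28.3 CPM with FHD-286 (log2 1.08 ± 0.15, adjusted p = 0.000423, and 1.31 ± 0.08 without control 2). H4C9 went from 2.83, 3.52 and 2.51 CPM to 6.91 and 7.03 CPM (log2 1.24 ± 0.16, adjusted p = 0.000207, and 1.39 without control 2). Both were above all controls in both treated libraries. H2AC11 went from 2.28, 3.72 and 1.84 CPM to 5.6 and 5.99 CPM (log2 1.15 ± 0.24, adjusted p = 0.00456, and 1.5 without control 2). H2BC11 went from 1.71, 1.49 and 1.37 CPM to 2.60 and 3.23 CPM (log2 0.94 ± 0.20, adjusted p = 0.00497, and 0.92 without control 2). H2BC6 went from 0.198, 0.274 and 0.0749 CPM to 0.645 and 0.818 CPM (log2 2.01 ± 0.51, adjusted p = 0.0121, and 2.44 without control 2). H4C14 rose in this line (log2 1.45 ± 0.40, adjusted p = 0.0189, and 1.77 without control 2), from 0.184, 0.245 and 0.0999 CPM to 0.412 and 0.549 CPM. Without treated FLT3-ITD library 2, which leaves 1 that is assumed to vary like the other groups, H2BC11 (adjusted p = 0.0597), H2BC6 (0.0807) and H4C14 (0.131) were not called, nor was H4C14 without treated library 1 (0.0507).

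H2AC6 turned on the second control. It was at 3.29, 27.5 and 3.71 CPM in the FLT3-ITD controls and at 17.0 and 17.9 CPM with FHD-286. Controls 1 and 3 were low, control 2 was above both treated libraries, and no change was called with all libraries (log2 0.60 ± 0.77, adjusted p = 0.60). Without it the value was 2.31 ± 0.09 (adjusted p = 6.33e-15). H2BC5 behaved alike, at 3.03, 8.36 and 2.98 CPM in controls and 7.84 and 8.25 CPM with FHD-286 (log2 0.75 ± 0.37 and no call, or 1.42 ± 0.11 and called). H1-2 was at 4.46, 7.88 and 3.23 CPM and at 5.42 and 6.52 CPM, with log2 values of 0.20 ± 0.29 (no call) and 0.64 ± 0.14 (called).

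The 4 genes that fell in this line were H1-4, H4C5, H2AC25 and H2AC20. H1-4, a linker histone, went from 2.24, 5.28 and 2.65 CPM to 1.10 and 1.40 CPM (log2 -1.43 ± 0.43, adjusted p = 0.0272, and -0.96 without control 2). H4C5 went from 1.25, 2.14 and 1.40 CPM to 0.618 and 0.671 CPM (log2 -1.30 ± 0.36, adjusted p = 0.0182, and -1.03 without control 2). H2AC25 went from 4.18, 7.75 and 3.72 CPM to 2.20 and 2.65 CPM (log2 -1.10 ± 0.29, adjusted p = 0.0147, and -0.70 without control 2). Control 2 was the highest control for all 3, and the falls stayed past the threshold without it. Without treated FLT3-ITD library 1 or 2 they did not (adjusted p = 0.183 and 0.0977 for H1-4, 0.124 and 0.0929 for H4C5, 0.125 and 0.0587 for H2AC25). H1-5 (log2 -0.59 ± 0.41), H4C1 (-0.80 ± 0.31) and H2BC14 (-1.27 ± 0.51) were not called here. Without control 2, H4C1 (-0.71) and H2BC14 (-1.32) were called and H1-5 (-0.73) was not. Of the 20 genes that rose in OCI-AML3, 6 rose in the FLT3-ITD line, which are also 6 of its 7, and no gene fell in both. Without control 2, 12 genes rose in both lines, of 22 in OCI-AML3 and 14 in the FLT3-ITD line, and 5 fell in both, of 8 and 10. No histone gene was called in opposite directions, with or without control 2. The share of all genes called in both lines is not given here, so these counts do not set histone genes apart.

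The difference between the lines in the response to FHD-286 passed the test for 3 members, all with a smaller response in the FLT3-ITD line, beside 2.08% of all genes with a higher and 1.4% with a lower value in that line (3.48% in all). H2BC4 was at 1.36, 1.60 and 1.02 CPM in FLT3-ITD controls and at 2.33 and 1.82 CPM with FHD-286. It rose there by 0.64 ± 0.22 (adjusted p = 0.0446, and between 0.0604 and 0.302 in the 8 fits without 1 library in which the call was lost), against 2.84 in OCI-AML3, a difference of -2.19 ± 0.30 (adjusted p = 0.00481). H2BC8 was at 1.19, 2.06 and 1.52 CPM and at 1.32 and 1.96 CPM, without a change in the FLT3-ITD line that passed the test (log2 0.05 ± 0.32), and its difference was -2.81 ± 0.44 (adjusted p = 0.0089). H4C8 was at 0.737, 1.69 and 1.06 CPM and at 1.06 and 0.94 CPM (log2 -0.22 ± 0.30), with a difference of -2.37 ± 0.41 (adjusted p = 0.0125). Without control 2 these differences were -2.04, -2.59 and -2.01, and 13 members were called, all lower, beside 9.71% higher and 7.39% lower of all genes (17.1% in all). DESeq2 called 9 of 50, all lower, beside 4.01% higher and 3.34% lower. Of those 13, 11 had a long annotated end, among them H2AC6 with -0.52 ± 0.12 (adjusted p = 0.00299) and H2BC12 with -0.34 ± 0.10 (adjusted p = 0.0219). The difference for H4C9 was -0.36 ± 0.21 with all libraries and -0.21 ± 0.16 without control 2, and was not called in either.

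Before treatment, 12 histone genes were higher and 2 lower in OCI-AML3-FLT3-ITD controls than in OCI-AML3 controls, beside 14.4% and 13.4% of all genes. The share called in either direction was 27.5% of the 51 members and 27.9% of all genes, so that the number of differences was near the background. The median log2 difference was 0.55, beside 0.01 for all genes. Without the library labelled control 2, 18 were higher and 11 lower, beside 24.0% and 25.4% (49.4% in either direction). This comparison shares its controls with the treatment comparisons, and the values are given side by side only. Of the 28 short-ended genes tested 8 were higher and none lower (median 1.05), and of the 23 long-ended genes 4 were higher and 2 lower (median 0.03). Of those 8, which are also among the 12, H4C2 and H4C6 passed the filter on low counts only through FLT3-ITD controls. A difference was thus built into their selection. Without control 2 the counts were 13 higher and 2 lower among 27 short-ended genes, and 5 higher and 9 lower among the long-ended genes.

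H4C9 and H2BC12 were lower in the FLT3-ITD controls, by -1.33 ± 0.15 (adjusted p = 0.00031) and -1.25 ± 0.14 (adjusted p = 0.000365) on the log2 scale, with all 3 libraries below all OCI-AML3 controls. H1-4 was higher, with a log2 difference of 1.73 ± 0.38 (adjusted p = 0.00843), and H4C5 with 1.60 ± 0.32 (adjusted p = 0.00535). H2BC8 was higher by 1.45 ± 0.30 (adjusted p = 0.00644). H2BC18, an H2B gene of chromosome 1, was at 1.74, 1.02 and 1.58 CPM in OCI-AML3 controls and at 3.46, 2.77 and 2.54 CPM in FLT3-ITD controls (log2 1.02 ± 0.24, adjusted p = 0.012). H2AC16 was at 0.164, 0.172 and 0.144 CPM against 0.453, 0.707 and 0.549 CPM (log2 1.82 ± 0.43, adjusted p = 0.0112). H4C2, with 7 counts in the OCI-AML3 controls together, was at 0.0731, 0.0156 and 0.0359 CPM against 0.34, 0.231 and 0.15 CPM (log2 2.51 ± 0.62, adjusted p = 0.0136). H4C2 passed the filter on low counts only through the FLT3-ITD controls, so its adjusted p does not stand apart from its selection. All of these differences kept their direction and call without control 2, while that of H4C2 was lost without OCI-AML3 control 2 or 3 (adjusted p = 0.0515 and 0.0532). H2AC6, at 15.4 ± 0.796 CPM in OCI-AML3 controls (SD, n = 3), was not called with all libraries (-0.43 ± 0.70) and was lower without control 2 (-2.13 ± 0.09, adjusted p = 5.49e-15). H1-5 (1.01 ± 0.37, adjusted p = 0.0638) and H3C12 (1.08 ± 0.37, adjusted p = 0.0518) were called only without that library (1.18 and 1.15), and H4C1 was higher in both (1.03 and 0.94) but not without OCI-AML3 control 2 or 3 (adjusted p = 0.0662 and 0.0509).

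Since near-identical copies can share reads, counts were also summed over genes that encode the same protein. The 57 genes encode 30 different proteins, and 6 of these come from more than 1 gene. Summed RNA for the H4 protein, from 14 genes, went from 11.5 ± 1.55 to 31.5 ± 2.84 CPM in OCI-AML3 (SD, n = 3 each, log2 1.45 ± 0.15, adjusted p = 2.71e-05). In the FLT3-ITD line it went from 9.17 ± 1.88 (n = 3) to 11.6 ± 0.197 CPM (n = 2), which gave no call (log2 0.33 ± 0.17, adjusted p = 0.153), and the difference between the lines was -1.12 ± 0.23 (adjusted p = 0.0245). For the H2B protein shared by H2BC4, H2BC6, H2BC7 and H2BC8, the RNA sum went from 2.29 ± 0.731 to 13.1 ± 0.333 CPM in OCI-AML3 (log2 2.52 ± 0.22, adjusted p = 8.9e-06). The RNA sum for the H3 protein shared by 8 genes rose there by 1.21 ± 0.20 (adjusted p = 0.000688), from 1.78 ± 0.401 to 4.11 ± 0.677 CPM. The RNA sum of H2AC11, H2AC13 and H2AC16, which encode the same H2A protein, rose in both lines (log2 1.88 ± 0.22, adjusted p = 5.35e-05, and 0.89 ± 0.23, adjusted p = 0.0134). The FLT3-ITD controls held 2.98, 5.07 and 2.63 CPM of it and the treated libraries 6.48 and 6.71 CPM, all above control 2. The fits of these sums were made with all libraries, and the mean of the H4 sum in FLT3-ITD controls was 8.1 CPM without control 2.

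The counts that follow, of genes that control, carry or accompany these histones in OCI-AML3, stand beside 19.7% of all genes higher and 21.4% lower. Of 30 S phase and licensing genes 28 fell and none rose (median log2 -1.0), among them EXO1, an exonuclease of DNA repair (-1.31), GINS2 (-1.38) and CDC45 (-1.47), both parts of the replicative helicase. Of 22 histone chaperones and acetyl carriers 16 fell and 1 rose, with TONSL at -1.45, CHAF1A, a subunit of the chaperone CAF-1, at -1.14, and CABIN1 the one that rose (0.28). Of 21 factors of histone gene transcription and 3′ processing 11 fell and 1 rose. SLBP, which binds the stem-loop, went from 170, 156 and 170 CPM to 104, 105 and 104 CPM (log2 -0.66 ± 0.09, adjusted p = 0.000128), with all treated libraries lower. NPAT, the S phase activator of histone genes, was at 25.6, 26.8 and 21.6 CPM and at 22, 23 and 21.5 CPM, without a call (log2 -0.16 ± 0.09, adjusted p = 0.206). Of 12 histone mRNA decay factors 3 rose, TUT7 (0.67), XRN1 (0.72) and TUT4 (0.40), and 5 fell, including LSM4 (-0.79). Of 11 replication-independent histone variants tested, 7 fell, including MACROH2A1 (-0.99) and H2AX (-0.75), and H2AJ rose (0.68). Of 11 genes of G1/S control 5 fell, including CDC25A (-1.55), and CDKN1A rose (0.58). Without control 2 the counts higher and lower were 0 and 30 for S phase genes, 2 and 18 for chaperones, 1 and 14 for transcription and processing, 3 and 6 for decay, 2 and 7 for variants and 3 and 7 for G1/S control, beside 28.9% and 29.8% of all genes.

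In the FLT3-ITD line 3 of the 30 S phase genes rose, RRM2 (0.37) among them, and 3 fell (CDC45, CDT1 and MCM2), with a median of -0.11. Of all genes, 15.6% rose and 14.8% fell in that line. Without control 2, 4 rose and 17 fell (median -0.20), beside 24.7% and 24.2% of all genes. The difference between lines was called for 18 of the 30, all with the less negative value in the FLT3-ITD line (29 without control 2). Of all genes, 2.08% were called with a higher value in that line (9.71% without control 2). SLBP was at 169, 132 and 154 CPM in controls and at 141 and 142 CPM with FHD-286, without a call (log2 -0.10 ± 0.10), and fell without control 2 (-0.19 ± 0.07, adjusted p = 0.0259). Its difference between the lines was 0.56 ± 0.13 (adjusted p = 0.0402). NPAT rose there, from 28.2, 29.2 and 31.2 CPM to 41.5 and 37.0 CPM (log2 0.41 ± 0.10, adjusted p = 0.0117, and 0.40 ± 0.09, adjusted p = 0.00103, without control 2). The S phase values moved in the libraries in which the long-ended histone genes rose, and their part in those values was not tested.

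**Figure D5:**
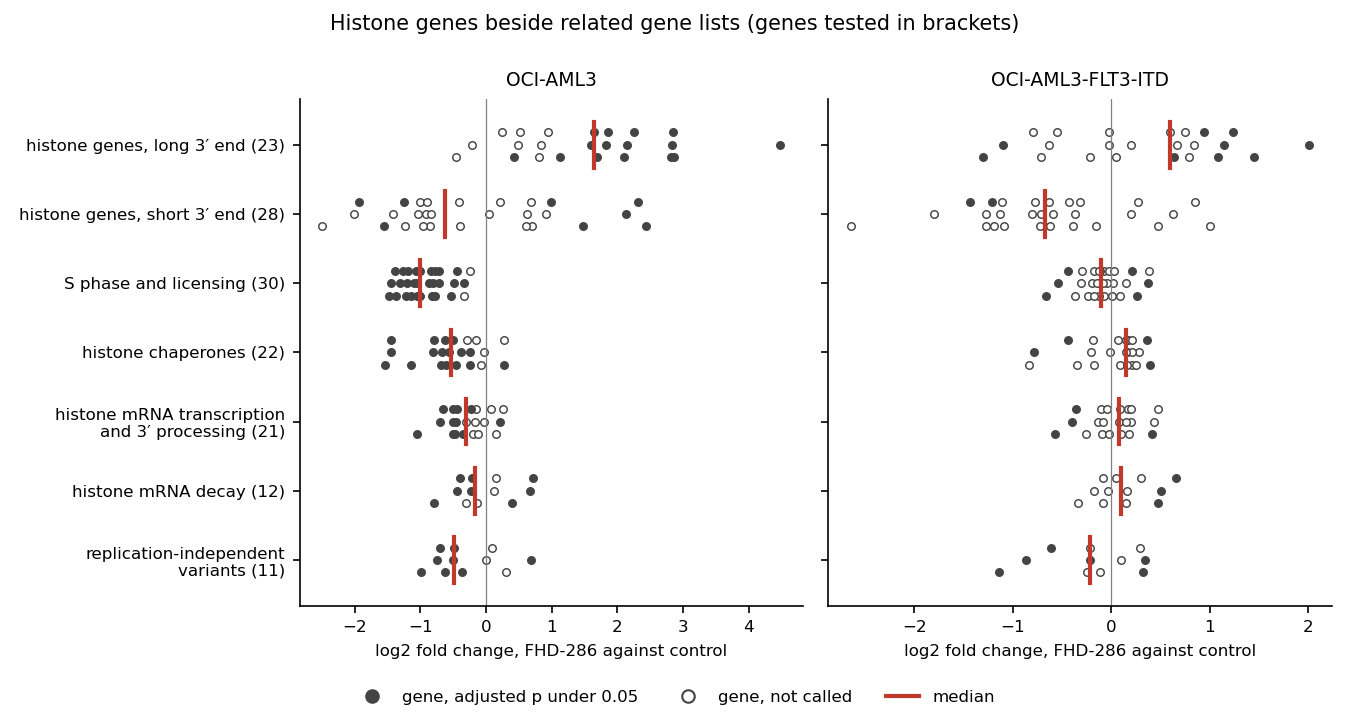
Log2 fold changes with FHD-286 of each gene tested in 2 classes of histone genes and 5 lists of related genes, in each line. Filled points passed an adjusted p of 0.05 and red bars are medians. In OCI-AML3 the median is 1.65 for long-ended histone genes and -1.0 for S phase genes, and in OCI-AML3-FLT3-ITD the S phase median is -0.11.

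RNAs known to lack a poly(A) tail were scarce in all libraries. Of 18 such RNAs 7, among them RN7SK and RPPH1, had no counts in any library, and 16 stayed under 1 CPM. The other 2 were RN7SL2 (3.10 to 16.3 CPM) and SNORD3A (0.531 to 1.81 CPM), and none of the 4 that could be tested was called in any of the 4 comparisons. How such RNAs were captured and counted bears on how the histone values were obtained, and its part in the results was not tested.

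Over the 11 libraries, the genes outside the family whose log2 CPM ran most like the mean of the 51 tested histone genes were FILIP1L (Spearman's rho 0.955), TBC1D17 (0.945), UBE2Q2P13 (0.936) and 5 more at 0.927 (DNAJC3-DT, MINDY2-DT, PPP1R35, RHOB and TNK1), where 6 genes tied. This is a description over libraries that share groups and includes the library labelled control 2. FILIP1L had a mean of 1.67 CPM in OCI-AML3 controls and 5.35 CPM with FHD-286, and 4.52 and 4.31 CPM in the FLT3-ITD groups.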

How the data were processed

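RNA of 11 libraries of 2 AML lines was measured. The authors deposited raw counts per gene, as whole numbers with no normalisation, for 58037 Ensembl identifiers, of which 57433 were found in GENCODE 29. The submitters' processing notes name STAR and the build hg38. What counted the reads, with which annotation and whether by strand, is not given in the sources used here. Reads of overlapping or antisense genes therefore cannot be told apart, and near-identical histone copies are uncertain.

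Genes passing filterByExpr (minimum count 10, minimum total 15) entered edgeR 4.0.16 (R 4.3.3) with TMM scaling (quasi-likelihood test, 1 mean per group, 7 residual degrees of freedom, two-sided). P-values were adjusted by Benjamini-Hochberg across every gene in the fit, and 0.05 was the limit for a call. The SE was taken from the F statistic as the log2 fold change over its square root. CPM use the same factors, and the SD is over libraries. The fit was tested on simulated counts. Alternatives were other scalings, no filter, a stricter filter (1 CPM in 3 libraries), DESeq2 1.42.0, only the groups compared, a replicate block, each library left out, and copies summed per protein.

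The members and lists were chosen with earlier results of these data known. Per-library values and full statistics are given for the 2 most abundant members of each family and, in each comparison, the 8 called members with the smallest p and 3 of the other direction. In each related list the 3 called genes with the smallest p in each direction could be named, with NPAT and SLBP always. Genes that behave alike were ranked by Spearman's rho of log2 CPM with a pseudocount of 0.1. Other members are named with their fold change only.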

Additional observations from a re-analysis of the deposited data

Results flagged for a closer look

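For 3 histone genes the response to FHD-286 differed between OCI-AML3 and OCI-AML3-FLT3-ITD by the test of the difference itself (edgeR, adjusted p under 0.05). The log2 differences, FLT3-ITD minus OCI-AML3, were -2.19 for H2BC4, -2.81 for H2BC8 and -2.37 for H4C8. All 3 genes have a long annotated 3′ end and rose at least 4-fold in OCI-AML3, and their values without the library labelled FLT3-ITD control 2 were -2.04, -2.59 and -2.01. Without the first treated FLT3-ITD library H2BC8 and H4C8 were no longer called (adjusted p = 0.0729 and 0.078), and without the second H4C8 was not (0.077).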

How the results depend on the processing

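Of 694 values of called, named histone genes under 19 alternatives, none reversed its direction and 46 no longer passed the threshold. DESeq2 called 5 members lower in OCI-AML3 (3 in edgeR) and 9 for the difference between lines, all lower (3 in edgeR), and gave no adjusted p for H2AC6. With only the compared groups fitted, 7 members were lower in OCI-AML3, 2 were called in the FLT3-ITD line (2 higher, 0 lower), and 8 between untreated lines (6 higher), from fewer tested genes. With copies summed per protein, 6 were called in the FLT3-ITD line (3 higher) and 7 between untreated lines (6 higher, 1 lower), of 29 sums tested. Shares of all genes called are not given here for the fits of compared groups or summed copies.

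Leaving out 1 library at a time gave 17 to 30 called members in OCI-AML3 (13 to 22 higher, 1 to 8 lower). It gave 3 to 24 in the FLT3-ITD line (3 to 14 higher, 0 to 10 lower), 1 to 13 for the difference (0 higher, 1 to 13 lower) and 8 to 29 between untreated lines (6 to 18 higher, 2 to 11 lower). The highest counts came without the library labelled FLT3-ITD control 2. In OCI-AML3 the share of all genes called was 58.8% without that library and 41.2% with all libraries. Shares of all genes for the other left-out libraries are not given here, so these ranges show only how far the calls moved.

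Deviations of same-numbered libraries from their group means correlated between -0.108 and 0.187, and those of differently numbered ones between -0.316 and 0.285. With so few libraries in each mean, these values cannot show whether replicate numbers pair the samples. With the replicate block, 17 members rose and 4 fell in OCI-AML3, 6 and 3 in the FLT3-ITD line, and 13 and 2 between untreated lines, and the difference called 3. Scaling by library totals moved the median of all genes to 0.17 in OCI-AML3 and left 20 members higher and 3 lower there. Shares of all genes called with the replicate block or library totals are not given here. Members under about 0.14 CPM carry few counts, and their changes are not well determined at this depth.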

Other observations

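Among 20 histone pseudogenes left out by the rule, 4 had at least 100 counts. H2BC20P was at 3.29, 4.42 and 3.00 CPM in OCI-AML3 controls and at 8.58, 8.06 and 9.49 CPM with FHD-286 (log2 1.28 ± 0.30, adjusted p = 0.00578). In the FLT3-ITD line it was at 2.44, 6.70 and 3.95 CPM and at 7.28 and 8.38 CPM (0.85 ± 0.33, not called, and 1.29 ± 0.19, called, without the library labelled control 2). H1-12P had 10 counts in the OCI-AML3 controls together and 232 with FHD-286 (log2 4.13 ± 0.58, adjusted p = 0.000231). H2BC19P (0.38 ± 0.38) and H3C9P (-0.39 ± 0.41) were not called in OCI-AML3. Reads of pseudogenes and of similar histone genes may be shared by the counting.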
